A study of Mus musculus with 12 samples.

Results

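The nuclear-encoded subunits of the respiratory chain and of the mitochondrial ATP synthase were followed in mouse embryonic stem cells that overexpressed Tnrc6a or lacked Trim71. They were taken as the genes whose symbol in the deposited count table begins with Ndufa, Ndufb, Ndufc, Ndufs, Ndufv, Uqcr, Cox4 to Cox8 or Atp5, together with Sdha, Sdhb, Sdhc and Sdhd. The pattern matched 97 symbols, 2 of them pseudogenes marked by the ending -ps were left out, and 95 of the 20529 genes listed remained. By role, 77 are structural subunits (37 of complex I, 4 of complex II, 8 of complex III, 11 of complex IV and 17 of complex V), 8 are Ndufaf assembly factors of complex I, 6 are tissue-restricted isoforms, 3 are copies of a subunit gene and 1 is the supercomplex factor Cox7a2l. The gene listed as Ndufb1, counted in complex I, is annotated as a bidirectional promoter long noncoding RNA. The copies Ndufb4c and Ndufs6b are annotated as processed pseudogenes. All 95 passed the filter on low counts and were tested, and 3 of them, Cox7b2, Cox8c and Ndufa4l2, had a mean under 1 CPM, the unit of a count scaled to library size.

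The respiratory chain passes electrons from NADH at complex I, or from succinate at complex II, through ubiquinone to complex III and by cytochrome c to complex IV, which reduces oxygen. Complexes I, III and IV pump protons across the inner mitochondrial membrane, and complex V, the ATP synthase, uses the gradient to make ATP. Most subunits are encoded in the nucleus and imported, while the remainder, at the hydrophobic core, are encoded in mitochondrial DNA. Embryonic stem cells in serum and LIF use both glycolysis and respiration.

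The cells were 129S6/SvEvTac embryonic stem cells that carry a GFP reporter named GFP_5xT71BS (yGlob) and, by stable transfection, FLAG-Cas9, and the 4 groups of 3 libraries share these features. The Cas9 control and Cas9 Trim71-/- groups carry the overexpression tag Cas9, and the Tnrc6a control and Tnrc6a Trim71-/- groups the tag Tnrc6a. Tnrc6a encodes a GW182 protein, the scaffold that links Argonaute to deadenylation, and Trim71 an RNA-binding protein of early embryos. Replicates are wells of a plate with the same label, and nothing says that they come from separate lines or clones, so p-values measure the spread between wells. For 9 libraries the line on input RNA names other cells (HA-AVI-Tnrc6a alone, with Ago2-/- or with Upf1-/-), so the groups rest on the titles and on the overexpression tag.

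The libraries held 20758151 to 31552915 counts. Tnrc6a RNA stood at 132, 134 and 131 CPM in the 3 Cas9 control libraries and at 3319, 3436 and 3197 CPM in the 3 Tnrc6a control libraries, and at 152, 148 and 133 against 3477, 3684 and 3704 CPM in the Trim71-/- groups. Trim71 RNA was 290.1, 311 and 317 CPM in Cas9 control and 264, 270.1 and 291 CPM in Cas9 Trim71-/- libraries. The deleted part of Trim71 is not given, so these counts do not check the knockout. All 10 embryonic stem cell markers, such as Pou5f1 and Sox2, were detected, with sums of 6166 to 6230 CPM in Cas9 control, 7078 to 7147 in Cas9 Trim71-/-, 3595 to 3633 in Tnrc6a control and 5189 to 5274 in Tnrc6a Trim71-/- libraries. The 7 markers of two-cell-like cells summed to 13.6 to 16.3, 0.876 to 1.78, 340.1 to 349 and 127 to 136 CPM in the same order, the 8 of primitive endoderm to 333 to 349, 98.4 to 111, 636 to 702 and 116 to 138 CPM, and the 5 tested of 6 for trophoblast to 22.0 to 25.8, 23.5 to 28.4, 206 to 243 and 106 to 109 CPM. Neural (129 to 189 CPM), mesoderm (8.07 to 16.4) and fibroblast markers (7.44 to 17.4) spanned smaller ranges over all libraries, and none of the markers tested was at 0 throughout. Markers of other cell states thus differed between the groups, and their part in the results on respiratory chain genes was not tested. In bulk RNA, fewer cells of a type and less RNA per cell cannot be told apart.

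Respiratory chain genes took up about 1 in 100 counts. Their share of all counts was 1.133%, 1.122% and 1.098% in Cas9 control libraries and 1.179%, 1.176% and 1.271% in Cas9 Trim71-/- libraries. It was 0.9785%, 0.9708% and 0.9300% in Tnrc6a control and 1.005%, 1.002% and 1.015% in Tnrc6a Trim71-/- libraries. The 6 Tnrc6a libraries thus lay below the 6 Cas9 libraries, with no overlap. The median coefficient of variation of a gene over the 3 wells was 3.69% in Cas9 control, 4.09% in Tnrc6a control, 3.86% in Tnrc6a Trim71-/- and 7.22% in Cas9 Trim71-/- cells. The larger spread of the last group goes with its replicate 3, in which the median respiratory chain gene stood 0.21 above the Cas9 control mean on the log2(CPM + 0.5) scale, against 0.09 and 0.06 in replicates 1 and 2.

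On the length-normalized scale of the deposited RPKM (reads scaled to gene length and to a constant per library), the highest single genes were subunits of the ATP synthase and of cytochrome c oxidase. The catalytic beta subunit of the ATP synthase, Atp5b, had 486 ± 9.59 RPKM in Cas9 control cells (mean ± SD, n = 3), and its alpha partner Atp5a1 337 ± 6.94. In complex IV the small subunit Cox6a1 was at 313 ± 19.03 and Cox4i1, the largest nuclear subunit, at 256 ± 5.64 RPKM. In this order the gap between neighbours exceeded the SD of each. The highest genes of complex III were Uqcr10 at 159 ± 1.72 and Uqcr11 at 118 ± 3.58 RPKM. In complex I the accessory subunit Ndufb9 was at 104 ± 4.94 RPKM. The highest of complex II were the membrane anchor Sdhd at 97.5 ± 2.01 and the flavoprotein Sdha at 63.9 ± 2.36 RPKM. The RPKM depends on the exon length the authors assigned to a gene, which was 4522 bases for Ndufb7 with a coding length of 411, so a gene with long annotated exons reads low.

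Summed over the 77 structural subunits, the RPKM was 6115, 6107 and 5925 in the Cas9 control libraries and 4607, 4627 and 4415 in the Tnrc6a control libraries. In Trim71-/- cells it was 6442, 6392 and 7112 with Cas9 and 4821, 4817 and 4949 with Tnrc6a. All 6 Tnrc6a libraries were below all 6 Cas9 libraries. The means were 6049 ± 108, 6648 ± 402, 4549.6 ± 117 and 4862 ± 74.8 (SD, n = 3) for Cas9 control, Cas9 Trim71-/-, Tnrc6a control and Tnrc6a Trim71-/- cells. The sum was 24.8% lower with Tnrc6a in control cells and 26.9% lower in Trim71-/- cells. The RPKM constant was 0.935 to 0.954 times the sum of counts in Cas9 and 1.042 to 1.078 times in Tnrc6a libraries. Part of both percentages rests on that difference. The CPM are scaled by factors from a trimmed mean of M values. These were nearly the same, 0.934 to 0.953 in Cas9 and 1.041 to 1.077 in Tnrc6a libraries. The RPKM sums are thus no measure apart from that scaling. As a share of all counts, the 95 genes made up 1.098% to 1.133% in Cas9 control and 0.93% to 0.9785% in Tnrc6a control libraries. In Trim71-/- libraries the share was 1.176% to 1.271% with Cas9 and 1.002% to 1.015% with Tnrc6a. An exact permutation test of 3 libraries against 3 cannot go below p = 0.1, so none is given for the sums.

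**Figure D1:**
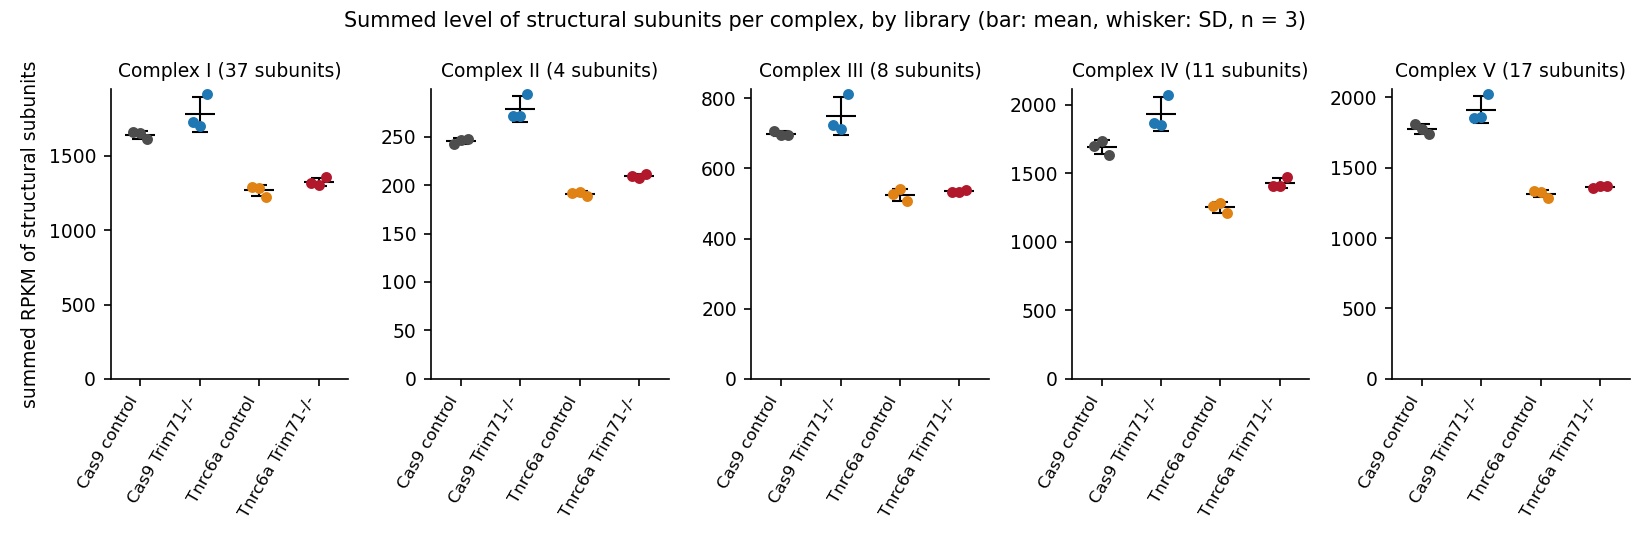
Summed RPKM of the structural subunits of each complex (vertical axis, starting at 0) for the 4 groups (horizontal axis). Points are libraries, the bar is the mean and the whisker the SD of 3. In all 5 complexes the 3 Tnrc6a control libraries lie below the 3 Cas9 control libraries, with complex V at 1314 ± 26.1 against 1775 ± 35.7. The RPKM constant was larger relative to total counts in Tnrc6a libraries, which makes up part of this distance.

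The first pair of comparisons asked what differed between cells that overexpressed Tnrc6a and cells with Cas9 only. Most respiratory chain genes were lower with Tnrc6a, in both genetic backgrounds and in all 5 complexes. In control cells 84 of the 95 genes fell and 2 rose, where 33.1% of all genes tested fell and 30.4% rose. In Trim71-/- cells 89 fell and 1 rose, where 30.9% of all genes tested fell and 32% rose, and 88 fell without Cas9 Trim71-/- replicate 3. The median log2 fold change of the 95 genes was -0.39 in control and -0.45 in Trim71-/- cells, beside -0.02 and 0.02 over all 20486 genes tested. Of the 77 structural subunits, 75 fell in control cells and 77 in Trim71-/- cells, and none rose.

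The 2 Tnrc6a comparisons have no library in common. All 84 genes that fell in control cells also fell in Trim71-/- cells, where they were 94.4% of the 89. The other 5 called lower in Trim71-/- cells were Cox7a1, Ndufa6, Ndufaf6, Ndufaf7 and Uqcrc2. Cox4i2, Cox6b2, Cox7b2, Cox8c, Ndufa4l2 and Ndufaf1 fell in neither. The 3 libraries of the 2 groups did not overlap for 88 genes in control cells (85 lower, 3 higher with Tnrc6a) and for 90 in Trim71-/- cells (89 lower, 1 higher). Over all genes tested, 34.8% lay lower and 32.6% higher without overlap in control cells, and 32.3% and 33.3% in Trim71-/- cells. Among all other genes that average 10 CPM or more and lie off chromosome 8, 4647 of 9887 fell in control cells (median -0.10) and 4382 in Trim71-/- cells (median -0.07).

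The number of respiratory chain genes called lower with Tnrc6a depended on the scaling. With library totals in place of trimmed mean of M values (TMM) factors, the median of all genes moved to 0.15 and 0.17, that of the respiratory chain genes to -0.22 and -0.30, and 69 and 71 of them fell. With totals the share of lower genes among all genes called was 34.8% and 33.3%, beside 52.1% and 49.1% with TMM. Relative to all genes, the respiratory chain genes stood at -0.37 and -0.46 under either scaling. A scaling factor shifts all genes of a comparison alike, so this distance could hardly change and is no test of the scaling. Gm26917, a locus that collects ribosomal RNA reads, rose with Tnrc6a in both backgrounds. It stood at 440.2, 396 and 371 CPM in Cas9 control and 1453, 1553 and 1429 CPM in Tnrc6a control libraries. Its neighbour Gm42418 rose in control cells (log2 fold change 1.49, edgeR adjusted p = 0.0176), with 1979, 4772 and 2245 CPM in Tnrc6a control libraries. In Trim71-/- cells Gm42418 did not pass (0.30, edgeR adjusted p = 0.588), and the Cas9 libraries had 1020, 1125 and 2449 CPM. The part of either locus in the results was not tested.

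**Figure D2:**
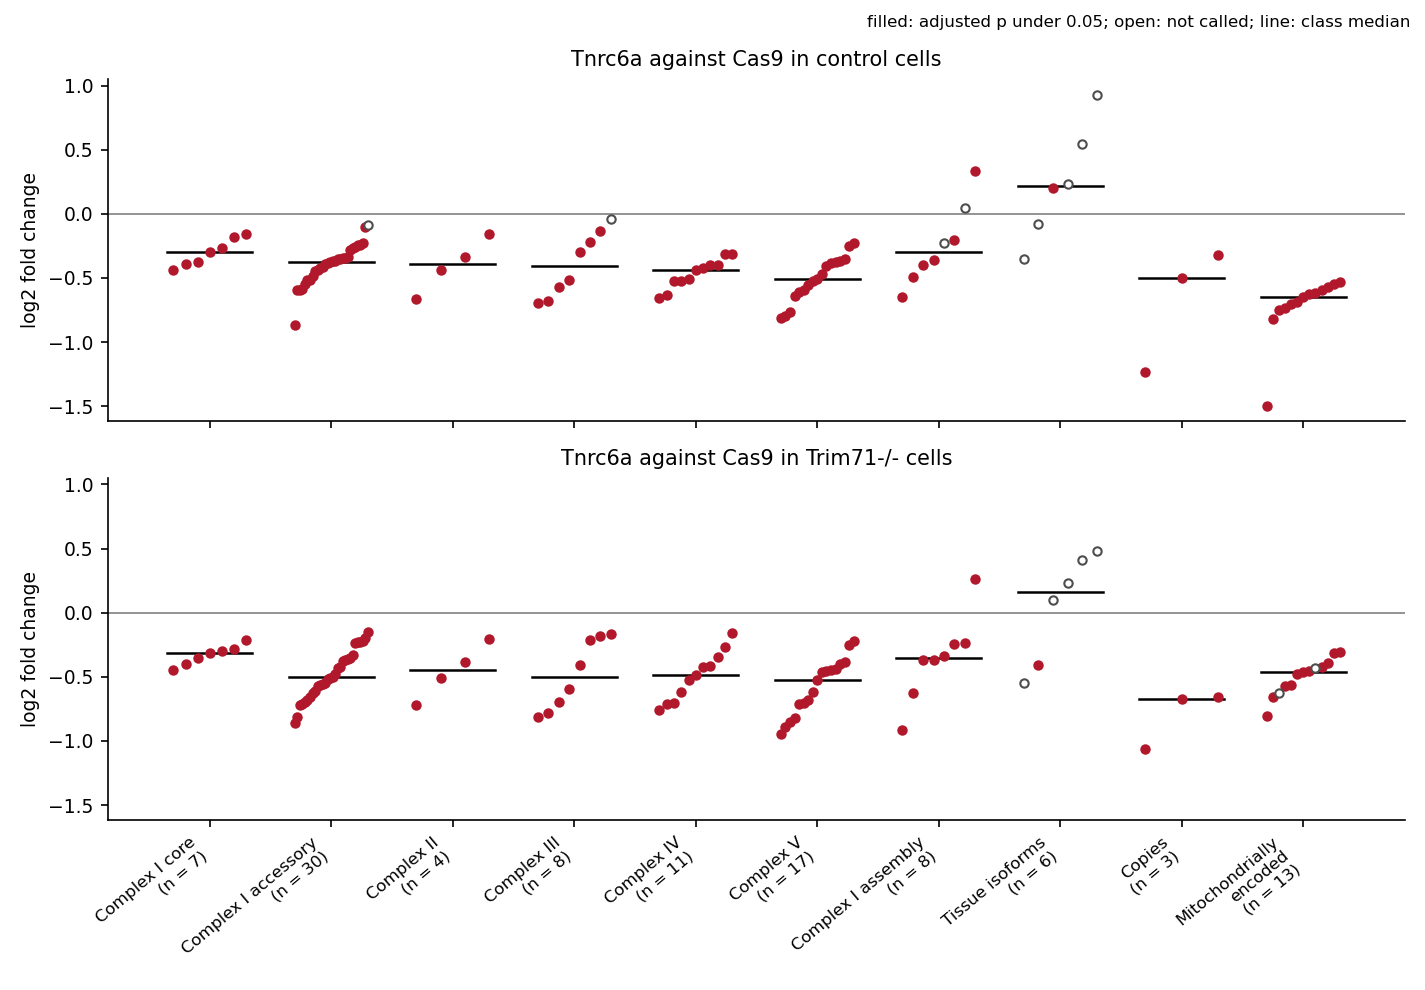
Log2 fold change with Tnrc6a (vertical axis) of each respiratory chain gene by class (horizontal axis), in control cells (upper panel) and Trim71-/- cells (lower panel), with the mitochondrially encoded subunits at the right. Filled points passed the edgeR test and open points did not, and lines are class medians. Structural subunits lie below 0 in every complex, while the 6 tissue isoforms scatter on both sides.

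Complex I takes electrons from NADH. With Tnrc6a, 36 of its 37 structural subunits fell in control cells and 37 in Trim71-/- cells, with medians of -0.37 and -0.43. The 7 core subunits, which hold the redox centres, all fell in both (medians -0.30 and -0.32), and of the 30 accessory subunits 29 and 30 fell (medians -0.37 and -0.50). Ndufa7, an accessory subunit of the NADH dehydrogenase module (chr17:33824572-33838317, plus strand, GRCm38), had 135, 141 and 129.6 CPM in Cas9 control and 76.01, 71.97 and 75.2 CPM in Tnrc6a control libraries. Its level in Trim71-/- cells was 139, 138 and 155 CPM with Cas9 and 81.7, 74.8 and 81.4 CPM with Tnrc6a. No Tnrc6a library reached a Cas9 library, and the level was 1.82-fold lower in control cells (log2 fold change -0.86, SE 0.05, adjusted p = 6.27e-20 in edgeR) and 1.81-fold lower in Trim71-/- cells (log2 fold change -0.86, SE 0.05, adjusted p = 7.4e-20 in edgeR). The accessory subunit Ndufv3 changed by -0.52 and -0.72 and Ndufa10 by -0.59 and -0.43. At the other end, Ndufa6 stood at -0.09 (SE 0.05, edgeR adjusted p = 0.136) in control cells, the 1 structural complex I subunit that did not pass there. Ndufb9, of high level, went from 104 ± 4.94 to 81.5 ± 3.13 RPKM in control cells and from 99.8 ± 7.58 to 85.5 ± 2.72 in Trim71-/- cells. The call on Ndufb9 in Trim71-/- cells was lost with library totals (edgeR adjusted p = 0.208).

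Complex II, succinate dehydrogenase, is encoded in the nucleus in full. All 4 subunits fell with Tnrc6a in both backgrounds. The flavoprotein Sdha, which oxidizes succinate, moved least of the 4 and had 265, 254 and 273 CPM in Cas9 control and 238, 231 and 239.9 CPM in Tnrc6a control libraries (log2 fold change -0.16, SE 0.04, adjusted p = 0.000242 in edgeR). With library totals this value was 0.01 (edgeR adjusted p = 0.882) and that in Trim71-/- cells -0.05 (edgeR adjusted p = 0.222), so both calls on Sdha rest on the scaling. The iron-sulfur subunit Sdhb changed by -0.44 and -0.51, and the membrane anchors Sdhc by -0.66 and -0.72 and Sdhd by -0.34 and -0.38 in control and Trim71-/- cells.

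In complex III, which hands electrons to cytochrome c, 7 of 8 subunits fell in control and 8 in Trim71-/- cells (medians -0.41 and -0.50). The small subunits Uqcr11 and Uqcrq moved most. Uqcr11 changed by -0.68 and -0.81, Uqcrq by -0.70 and -0.78, and the level of Uqcr10 went from 159 ± 1.72 to 111 ± 4.52 RPKM in control cells. The large core proteins moved least. Uqcrc1 changed by -0.13 and -0.16, and Uqcrc2 stood at -0.04 in control cells (edgeR adjusted p = 0.385) and fell in Trim71-/- cells (-0.18). Cyc1, the cytochrome c1 of this complex, which the symbol pattern does not cover, changed by -0.35 and -0.45.

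All 11 structural subunits of complex IV fell in both backgrounds (medians -0.44 and -0.49). Cox6a1, at the dimer interface, went from 313 ± 19.03 to 237 ± 5.31 RPKM in control cells and from 297 ± 25.3 to 222 ± 6.78 in Trim71-/- cells. The small subunits Cox7b (-0.66 and -0.71), Cox6c (-0.63 and -0.76) and Cox7c (-0.53 and -0.70) lay below the class median. Cox4i1 moved less, by -0.31 and -0.16, and the second value was -0.10 without Cas9 Trim71-/- replicate 3. With library totals its call in Trim71-/- cells was lost (edgeR adjusted p = 0.943). The exons of Cox4i1 overlap those of Emc8 and the exons of Cox6c those of Vps13b, each on the opposite strand.

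All 17 subunits of complex V fell in both backgrounds (medians -0.51 and -0.52), the lowest class medians among the 5 complexes. Atp5e, the epsilon subunit of the rotating central stalk (chr2:174461072-174464105, minus strand), had 80.3, 76.9 and 70.2 CPM in Cas9 control and 45.7, 44.9 and 38.8 CPM in Tnrc6a control libraries. The Trim71-/- libraries had 73.1, 77.7 and 89.4 CPM with Cas9 and 39.6, 42.3 and 42.6 CPM with Tnrc6a. The groups did not overlap, and Atp5e was 1.76-fold lower (log2 fold change -0.81, SE 0.07, adjusted p = 3.53e-10 in edgeR) in control cells and 1.93-fold lower (log2 fold change -0.94, SE 0.07, adjusted p = 2.7e-11 in edgeR) in Trim71-/- cells. Atp5j2, the f subunit of the membrane part, went from 124, 116 and 120.2 CPM to 71.5, 71.5 and 64.5 CPM in control cells (log2 fold change -0.80, SE 0.05, adjusted p = 6.72e-15 in edgeR). Atp5k, the e subunit that helps ATP synthase form dimers, went from 66.8, 61.9 and 82.4 CPM to 35.6, 37.9 and 40.1 CPM in Trim71-/- cells (log2 fold change -0.89, SE 0.08, adjusted p = 5.75e-09 in edgeR) and changed by -0.61 in control cells. The 5 subunits of the F1 head and stalk all fell, with medians of -0.38 and -0.40, and the highest of them in level, Atp5b, changed by -0.35 and -0.38. The inhibitor of the enzyme, Atpif1, which is outside the pattern, changed by -0.81 and -0.95.

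The c subunit that forms the rotor ring is made from 3 genes with the same mature protein, Atp5g1, Atp5g2 and Atp5g3. All 3 fell with Tnrc6a in both backgrounds, with medians of -0.59 and -0.71. Atp5g1 had 142, 143 and 132 CPM in Cas9 control and 83.3, 83.1 and 79.3 CPM in Tnrc6a control libraries (log2 fold change -0.76, SE 0.05, adjusted p = 2.37e-18 in edgeR), with no overlap. Per length, Atp5g3 was the highest of the 3 in each group, at 117 RPKM in Cas9 control and 77.7 in Tnrc6a control cells, before Atp5g2 (47.7 and 33.5) and Atp5g1 (28.3 and 16.7). Atp5g2 shares 38.3% of its 50-base stretches with other annotated transcripts, so its count is uncertain.

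The 8 Ndufaf genes encode factors that build complex I without staying in it. With Tnrc6a, 5 fell and 1 rose in control cells (median -0.30), and 7 fell and 1 rose in Trim71-/- cells (median -0.35). Ndufaf1, which acts on the membrane arm during assembly (chr2:119655446-119662827, minus strand), had 27.3, 22.5 and 24.2 CPM in Cas9 control and 33.05, 31.8 and 28.8 CPM in Tnrc6a control libraries. In Trim71-/- cells it had 34.5, 30.5 and 34.2 CPM with Cas9 and 36.7, 41.1 and 41.1 CPM with Tnrc6a. The Tnrc6a libraries were the higher in both backgrounds and did not overlap with the Cas9 libraries (log2 fold change 0.33, SE 0.07, adjusted p = 8.57e-05 in edgeR in control cells and log2 fold change 0.26, SE 0.07, adjusted p = 0.000949 in edgeR in Trim71-/- cells). Ndufaf8, the partner of Ndufaf5, went from 11.3, 12.2 and 13.8 CPM to 7.14, 6.001 and 6.505 CPM in Trim71-/- cells (log2 fold change -0.92, SE 0.12, adjusted p = 3.77e-09 in edgeR). Ndufaf2 changed by -0.49 and -0.63, Ndufaf3 by -0.20 and -0.37, Ndufaf4 by -0.36 and -0.24 and Ndufaf5 by -0.40 and -0.37. In control cells Ndufaf6 stood at -0.23 (edgeR adjusted p = 0.0562) and Ndufaf7 at 0.04 (edgeR adjusted p = 0.638).

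Copies of subunit genes fell too, 3 of 3 in both backgrounds (medians -0.50 and -0.67). The largest fall among the 95 genes in control cells was that of Ndufb11b, a copy of the accessory subunit gene Ndufb11. It had 7.99, 6.63 and 6.07 CPM in Cas9 control and 3.096, 3.06 and 2.65 CPM in Tnrc6a control libraries (log2 fold change -1.24, SE 0.15, adjusted p = 2e-09 in edgeR). The Trim71-/- libraries had 4.33, 4.18 and 4.93 CPM with Cas9 and 1.95, 2.72 and 1.695 CPM with Tnrc6a (log2 fold change -1.07, SE 0.17, adjusted p = 6.3e-07 in edgeR), again with no overlap. It shares 16% of its 50-base stretches with other transcripts, Ndufb4c shares 100% and Ndufs6b 25.4%, so part of their counts can come from the parent genes.

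The fall with Tnrc6a was larger below 450 coding bases than in the classes of longer genes. Classes of coding length were chosen after the values had been seen. The 50 respiratory chain genes with under 450 coding bases had medians of -0.43 and -0.56 in control and Trim71-/- cells, the 27 of 450 to under 900 bases -0.35 and -0.37, the 11 of 900 to under 1500 bases -0.18 and -0.25, and the 4 of at least 1500 bases, a thin class, -0.36 and -0.39. Over the 76 structural subunits with a coding length, Spearman's rho of length and log2 fold change was 0.51 in control and 0.62 in Trim71-/- cells, as a description over genes measured in the same libraries. Over all 15143 protein-coding genes tested this rho was 0.115 and 0.148. The rho of mean RPKM and log2 fold change was -0.424 and -0.472 over all protein-coding genes, and -0.009 and 0.181 over the structural subunits. Among other protein-coding genes with at least 10 CPM the fall lessened from each length class to the next, up to the longest. Under 450 bases their medians were -0.32 and -0.33, and 69.1% and 69.8% of 570 genes fell. At 450 to under 900 bases the medians were -0.14 and -0.13, with 51.7% and 49.1% of 1751 genes lower, at 900 to under 1500 bases -0.04 and -0.01, with 41.6% and 38.1% of 2493 lower, and from 1500 bases 0.01 and 0.03, with 36.5% and 33.4% of 4462 lower. The share of respiratory chain genes that fell was 88.0% and 92.0% below 450 bases, and 96.3% in both backgrounds at 450 to under 900 bases. The parts of transcript length and of expression level in the fall were not tested.

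**Figure D3:**
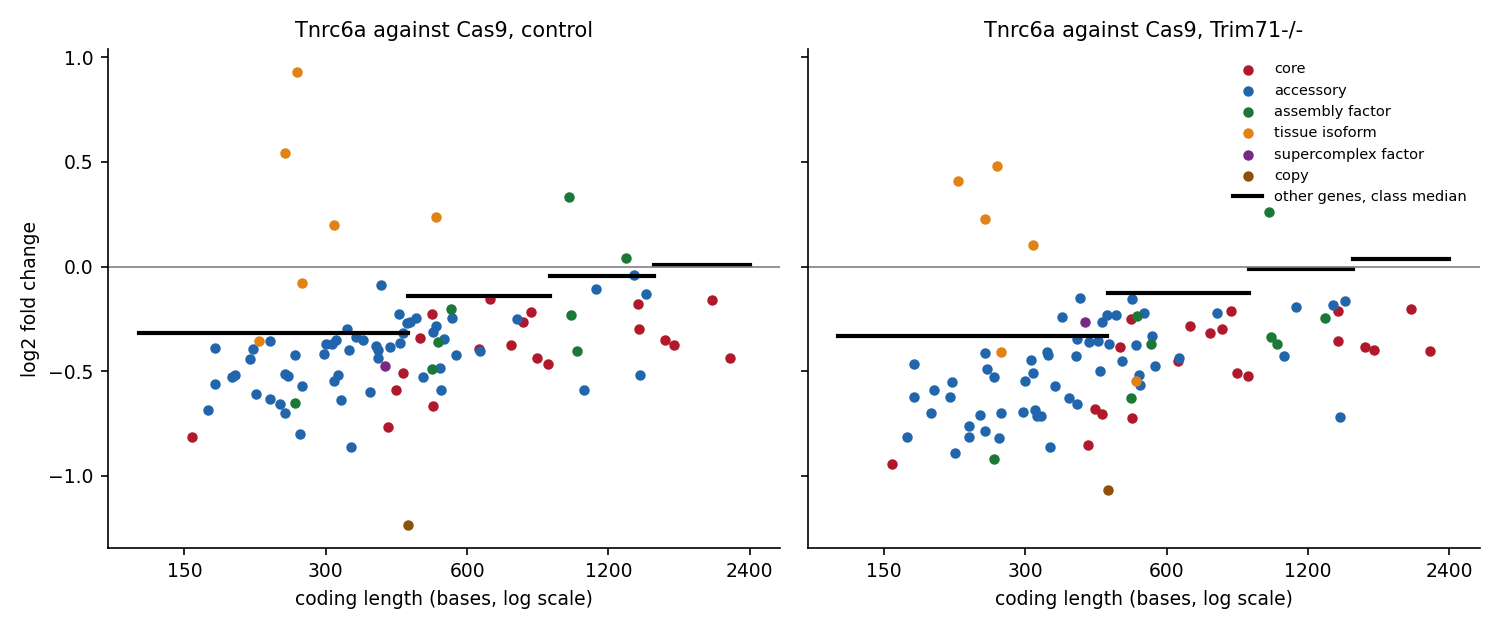
Log2 fold change with Tnrc6a (vertical axis) against coding length in bases (horizontal axis, log scale) for the 92 respiratory chain genes with a coding length, in control cells (left) and Trim71-/- cells (right). Colours mark the role, and black lines the median of other protein-coding genes of at least 10 CPM in 4 length classes. Most points lie below the line of their class, and short genes lie lowest on both.

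The chain also needs subunits made inside mitochondria and the machinery that imports and assembles the parts. Their counts stand beside the 33.1% and 30.9% of all genes tested that fell with Tnrc6a in control and Trim71-/- cells. All 13 mitochondrially encoded subunits fell with Tnrc6a in control cells (median -0.65), and 11 fell in Trim71-/- cells (median -0.46), where ND5 and ND6 did not pass. Their sum was 32148, 36012 and 35020 CPM in Cas9 control and 19377, 23346 and 24048 CPM in Tnrc6a control libraries. For Trim71-/- cells it was 36793, 34680 and 29986 CPM with Cas9 and 25600, 23885 and 25876 CPM with Tnrc6a. The groups did not overlap. The ratio of mitochondrially encoded to nuclear-encoded counts was 2.93 ± 0.197, 2.64 ± 0.389, 2.48 ± 0.316 and 2.60 ± 0.105 (SD, n = 3) in Cas9 control, Cas9 Trim71-/-, Tnrc6a control and Tnrc6a Trim71-/- cells, and the libraries with and without Tnrc6a overlapped in both backgrounds. The largest fall of the 13 in control cells was that of ND6 (-1.50). ATP8, the short accessory subunit of complex V, changed by -0.82 and -0.80, and ATP6, its proton channel, by -0.75 and -0.57.

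Of 79 genes of the mitochondrial ribosome, 59 fell and 4 rose in control cells (median -0.35), and 63 fell and 2 rose in Trim71-/- cells (median -0.38). Mrpl34 changed by -0.84 and -0.82 and Mrpl42 by -0.66 and -1.03. Of 27 import genes, 18 fell and 1 rose, then 19 and 1, with the small outer membrane subunits Tomm5 (-0.96 and -1.05) and Tomm6 (-0.84 and -0.89) far down. Of 47 assembly factors outside the pattern, 24 fell and 4 rose in control and 27 fell and 3 rose in Trim71-/- cells (medians -0.16 and -0.19). Sdhaf1, which builds complex II, changed by -0.93 and -0.73, while Sco2, a copper chaperone of complex IV, rose by 0.34 and 0.81. Of 18 genes of pyruvate dehydrogenase and the citric acid cycle, 13 fell and 2 rose, then 12 and 1, with the succinyl-CoA ligase subunit Suclg2 at -0.62 and -0.66. The 19 genes of electron carriers and ubiquinone synthesis were mixed, with 7 lower and 4 higher in control and 9 lower and 5 higher in Trim71-/- cells. Coq10b, a ubiquinone-binding protein, rose by 0.88 and 0.70, and Coq7, a ubiquinone synthesis enzyme, changed by -0.61 and -0.79.

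Of 18 regulators of mitochondrial biogenesis and mitochondrial DNA expression, 10 fell and 2 rose in control and 12 fell and 3 rose in Trim71-/- cells. The coactivator Ppargc1b changed by -0.96 and -0.59, and Slirp and Ssbp1, which bind mitochondrial RNA and mitochondrial DNA, by -0.50 and -0.69 and by -0.52 and -0.59. Factors that bind promoters of many respiratory chain genes include NRF1 and GABP. The gene Nrf1 changed by -0.13 and -0.32, and Gabpa, the DNA-binding subunit of GABP, by -0.41 and -0.34.

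Promoter sequences were at hand for 76 of the 95 genes, from RefSeq on GRCm38.p6. Windows from 250 bases before to 50 after the start were searched on both strands for a 10-letter NRF1 string (in capitals in the first 2 windows printed below), CCGGAAG (GABP and other ETS factors), AAGATGGCG (YY1) and TCAAGGTCA (estrogen-related receptors). The first was found for 7 genes (9.21%, beside 1.07% of 27025 genes), the second for 19 (25%, beside 9.93%), the third for 8 (10.5%, beside 1.64%) and the fourth for 2 (2.63%, beside 0.466%). At least 1 was found for 31 genes, or 40.8%, beside 12.5% of all. With Tnrc6a, genes with a match had a median of -0.40 and those without -0.37 in control cells (30 of 31 and 40 of 45 lower), and -0.47 and -0.41 in Trim71-/- cells (30 and 43 lower). A match is a string of letters and says nothing of binding in these cells.

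The following 5 windows, each on the minus strand from 250 bases before to 30 after the start, show genes with matches that stand for the range of responses, with the matched letters in capitals. Atp5k (chr5:108434370-108434649) and Cox6a1 (chr5:115348929-115349208) hold the NRF1 and the ETS string and both fell. Atp5e (chr2:174464072-174464351), with the ETS string, had the largest fall of a structural subunit in Trim71-/- cells. Ndufaf1 (chr2:119662805-119663084), also with the ETS string, rose, and Atp5j (chr16:84834947-84835226), with the YY1 and the ETS string, fell. The annotated start of the Atp5j gene, at 84835625, is 700 bases from that of Gabpa on the other strand. It lies outside the window printed, and the window at that start (chr16:84835596-84835875) holds none of the strings.
Atp5k: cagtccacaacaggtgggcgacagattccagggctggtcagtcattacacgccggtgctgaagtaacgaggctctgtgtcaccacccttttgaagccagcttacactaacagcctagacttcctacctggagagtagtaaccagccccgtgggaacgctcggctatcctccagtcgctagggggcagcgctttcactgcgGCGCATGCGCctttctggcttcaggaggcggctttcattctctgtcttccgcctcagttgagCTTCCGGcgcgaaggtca
Cox6a1: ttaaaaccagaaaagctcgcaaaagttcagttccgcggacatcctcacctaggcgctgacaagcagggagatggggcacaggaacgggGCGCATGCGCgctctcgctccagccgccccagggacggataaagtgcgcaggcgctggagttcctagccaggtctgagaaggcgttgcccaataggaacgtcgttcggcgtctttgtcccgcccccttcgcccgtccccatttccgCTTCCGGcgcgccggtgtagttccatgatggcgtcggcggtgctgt
Atp5e: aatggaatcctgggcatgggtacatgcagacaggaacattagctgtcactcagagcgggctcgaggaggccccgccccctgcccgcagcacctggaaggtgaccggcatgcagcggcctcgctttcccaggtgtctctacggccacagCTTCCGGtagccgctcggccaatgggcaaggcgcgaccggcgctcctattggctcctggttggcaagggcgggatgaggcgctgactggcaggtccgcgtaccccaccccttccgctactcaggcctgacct
Ndufaf1: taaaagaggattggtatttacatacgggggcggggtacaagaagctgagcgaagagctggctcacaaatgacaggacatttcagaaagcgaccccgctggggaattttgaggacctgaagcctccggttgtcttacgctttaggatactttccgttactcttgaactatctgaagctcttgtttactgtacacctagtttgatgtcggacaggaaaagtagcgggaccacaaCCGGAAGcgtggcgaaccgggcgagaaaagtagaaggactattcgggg
Atp5j: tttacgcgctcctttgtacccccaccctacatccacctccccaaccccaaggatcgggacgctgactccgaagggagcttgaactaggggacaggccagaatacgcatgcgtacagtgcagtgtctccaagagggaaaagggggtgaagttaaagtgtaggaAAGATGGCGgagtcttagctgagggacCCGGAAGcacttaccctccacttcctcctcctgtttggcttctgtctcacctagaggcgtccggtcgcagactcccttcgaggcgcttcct

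Many of these genes share their start region with a gene on the other strand. Of 92 protein-coding members, 35 (38%) have such a partner starting within 1000 bases, beside 2202 of 15143 protein-coding genes tested (14.5%). The 33 partners that were tested and are not respiratory chain genes themselves moved less uniformly with Tnrc6a. In control cells 16 fell and 7 rose (median -0.19), while the respiratory chain genes beside them fell in 32 cases (median -0.42). In Trim71-/- cells 15 partners fell and 9 rose (median -0.14), beside 33 respiratory chain genes that fell (median -0.45). Ndufa7 and the ribosomal protein gene Rps28 start 10 bases apart and both fell in control cells (-0.86 and -0.60). Ndufs6 and Mrpl36, of the mitochondrial ribosome, start 29 bases apart and changed by -0.60 and -0.55. Other pairs went opposite ways, such as Uqcrh at -0.57 beside Lrrc41 at 0.67 (198 bases apart), Atp5c1 at -0.47 beside Kin at 0.37 (83 bases) and Ndufb3 at -0.55 beside Fam126b at 0.37 (61 bases). The exons of 30 respiratory chain genes overlap a gene on the opposite strand, Ndufs6 with Mrpl36 and Atp5j with Gabpa among them. The kit keeps the strand, but whether the counting used it is not known, so reads of such pairs may be mixed.

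The second pair of comparisons compared Trim71-/- with control cells. Changes were small and mostly upward. With Cas9, 38 of the 95 genes rose and 4 fell in Trim71-/- cells, where 17.1% of all genes tested rose and 19.1% fell, and the median log2 fold change was 0.11 beside -0.01 over all genes. With Tnrc6a, 31 rose and 9 fell, where 20% of all genes tested rose and 19% fell, and the median was 0.07 beside 0.00 over all genes. Each of these comparisons shares its control or its Trim71-/- libraries with both Tnrc6a comparisons above, but they share none with each other. The calls with Cas9 lean on 1 library, since without Cas9 Trim71-/- replicate 3 the counts were 33 higher and 8 lower and the median 0.06. Those with Tnrc6a varied with the scaling and the library left out. There were 20 higher and 14 lower with library totals, 19 and 11 with DESeq2, 20 higher without Tnrc6a control replicate 2 and 3 lower without Tnrc6a Trim71-/- replicate 1.

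The genes called higher were shared in part, 24 of them in both, which is 63.2% of the 38 and 77.4% of the 31. Ndufb11b, Cox6b2 and Ndufb10 were called lower in both, of which Ndufb11b and Ndufb10 lost calls under alternatives given with their values. The libraries of the 2 genotypes did not overlap for 48 genes with Cas9 (44 higher, 4 lower) and for 49 with Tnrc6a (35 higher, 14 lower). Over all genes tested, 20.7% lay higher and 22.6% lower without overlap with Cas9, and 25.5% and 23.9% with Tnrc6a. By complex, 15 of 37 subunits of complex I rose with Cas9 and 12 with Tnrc6a, then 3 and 3 of 4 in complex II, 4 and 3 of 8 in complex III, 7 and 5 of 11 in complex IV and 6 and 3 of 17 in complex V. Of all genes tested, 17.1% rose with Cas9 and 20% with Tnrc6a.

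The largest rises among the genes called were those of 3 genes on chromosome 8. Cox4i1 (chr8:120668222-120674207, plus strand) had 407, 393 and 390.5 CPM in Cas9 control and 549.7, 588 and 637 CPM in Cas9 Trim71-/- libraries (1.49-fold, log2 fold change 0.58, SE 0.04, adjusted p = 1.64e-14 in edgeR). With Tnrc6a it had 334, 325 and 300.3 and 524, 538 and 531 CPM (1.66-fold, log2 fold change 0.73, SE 0.04, adjusted p = 1.12e-17 in edgeR). No Trim71-/- library overlapped with the controls. Ndufb7, an accessory subunit of the membrane arm, went from 63.6, 59.9 and 53.9 to 83.2, 85.9 and 97.7 CPM with Cas9 (log2 fold change 0.59, SE 0.06, adjusted p = 2.77e-09 in edgeR) and changed by 0.61 with Tnrc6a. Ndufa13, an accessory subunit of complex I, went from 63.2, 62.2 and 61.6 to 83.8, 85.98 and 98.6 CPM with Cas9 (log2 fold change 0.52, SE 0.05, adjusted p = 5.5e-11 in edgeR) and changed by 0.39 with Tnrc6a. Their neighbours moved alike, since 504 of 592 other chromosome 8 genes with at least 10 CPM rose with Cas9 and 513 with Tnrc6a, with medians of 0.50 and 0.52. Copy number of the chromosome was not measured, and its part was not tested. Off chromosome 8, 35 of 92 respiratory chain genes rose and 4 fell with Cas9 (median 0.11), and 28 rose and 9 fell with Tnrc6a (median 0.06). Among 9887 other genes of at least 10 CPM off chromosome 8, 1980 rose and 2486 fell with Cas9 (median -0.01). With Tnrc6a, 2336 of these other genes rose and 2352 fell (median 0.002). The exons of Ndufa13 overlap those of Tssk6 on the opposite strand.

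**Figure D4:**
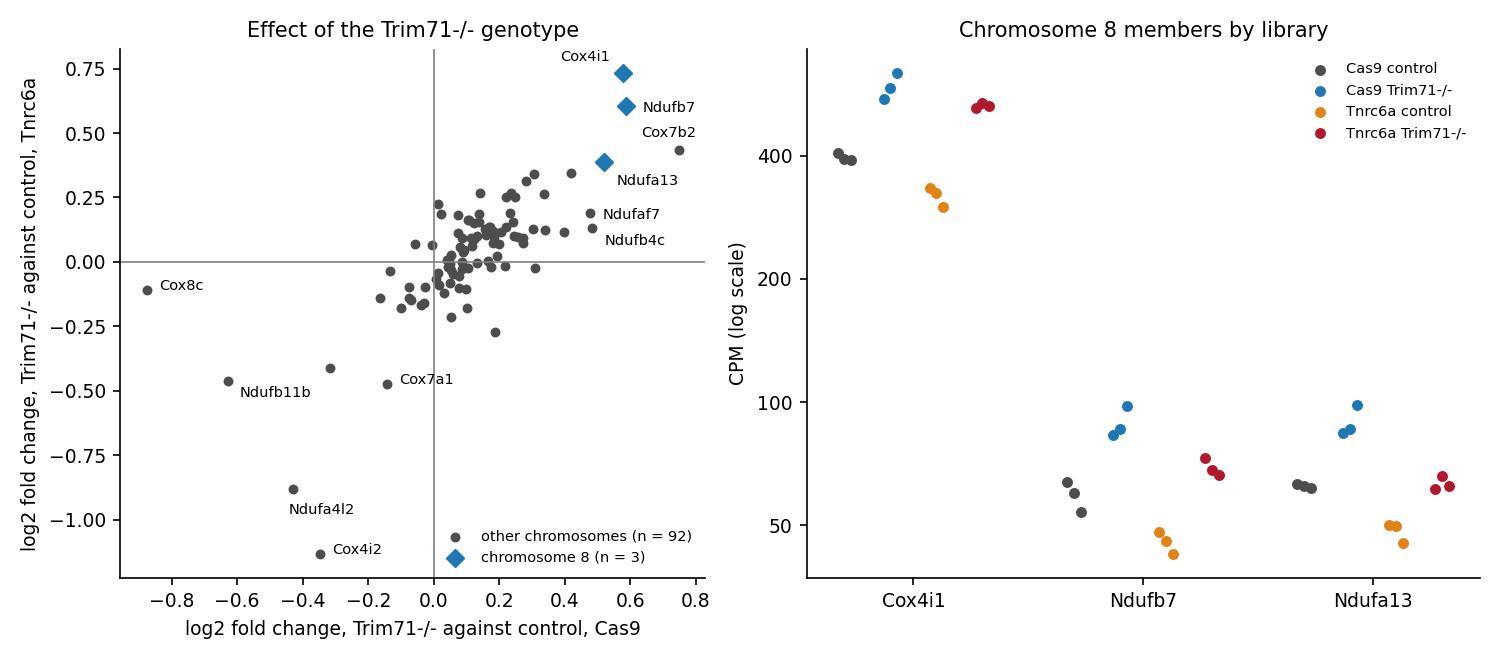
Left, log2 fold change in Trim71-/- cells with Tnrc6a (vertical axis) against that with Cas9 (horizontal axis) for the 95 respiratory chain genes, with the 3 on chromosome 8 as diamonds. Right, CPM of those 3 genes by library (log scale), coloured by group. The 3 chromosome 8 genes lie apart from most others at the upper right, and Cox4i1 is at 524 CPM or more in all 6 Trim71-/- libraries.

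Off chromosome 8 the rises were spread over the complexes. Sdha had 265, 254 and 273 CPM in Cas9 control and 301, 308 and 321 CPM in Cas9 Trim71-/- libraries (log2 fold change 0.23, SE 0.04, adjusted p = 2.07e-06 in edgeR), and with Tnrc6a 238, 231 and 239.9 and 267, 273 and 268 CPM (log2 fold change 0.19, SE 0.04, adjusted p = 5.38e-05 in edgeR). Sdhb changed by 0.34 and 0.26 with Cas9 and Tnrc6a. Sdhc changed by 0.18 and 0.12, and the call with Tnrc6a was lost when any library of the Tnrc6a groups was left out, and Sdhd did not pass (0.09 and 0.05, edgeR adjusted p = 0.0837 and 0.404). The accessory subunit Ndufb3 rose by 0.30 and 0.34, and Ndufaf1 by 0.42 and 0.34. Ndufaf7, a methyltransferase of complex I assembly, rose by 0.48 with Cas9 and 0.19 with Tnrc6a, and the second call was lost with DESeq2 (adjusted p = 0.106), with library totals and with relative log expression factors. It was also lost without any Tnrc6a library other than Tnrc6a Trim71-/- replicate 3 (edgeR adjusted p = 0.0555 to 0.254). The processed copy Ndufb4c rose with Cas9 (0.48), but its sequence is not unique.

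Few genes fell. Ndufb11b changed by -0.63 with Cas9 and -0.46 with Tnrc6a, the latter between -0.33 without Tnrc6a Trim71-/- replicate 3 and -0.71 without replicate 2. Its call with Tnrc6a was lost with limma-voom (adjusted p = 0.0508) and without Tnrc6a control replicate 1 or 2 or Tnrc6a Trim71-/- replicate 1 or 3 (edgeR adjusted p = 0.0729 to 0.194). Ndufb10, an accessory subunit of the membrane arm, changed by -0.17 and -0.14, and these calls were lost without Cas9 Trim71-/- replicate 2 (edgeR adjusted p = 0.0523) and without Tnrc6a Trim71-/- replicate 1 (0.11). Ndufa4 changed by -0.13 with Cas9, lost without Cas9 Trim71-/- replicate 1 (edgeR adjusted p = 0.0668) or 2 (0.0906). None of the 13 mitochondrially encoded subunits passed edgeR with Cas9. With Tnrc6a, 3 rose, ND3 by 0.45, COX2 by 0.23 and COX3 by 0.14. Among related lists, the mitochondrial ribosome had 19 higher and 7 lower of 79 with Cas9 and 16 and 13 with Tnrc6a, import 7 and 1, then 3 and 2, of 27, and assembly factors outside the pattern 18 and 6, then 12 and 6, of 47. The citric acid cycle had 7 and 1, then 6 and 1, of 18, electron carriers and ubiquinone synthesis 7 and 1 of 19 in both, and regulators 2 and 1, then 4 and 4, of 18. Beside these counts, 17.1% of all genes tested rose and 19.1% fell with Cas9, and 20% rose and 19% fell with Tnrc6a.

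Tissue-restricted isoforms of complex IV stood far below their ubiquitous partners in every group. With Tnrc6a, 1 of the 6 rose and none fell in control cells, and none rose and 1 fell in Trim71-/- cells. A difference from the other respiratory chain genes was not tested, and 3 of the 6 were under 1 CPM. Cox4i1 had 256 RPKM in Cas9 control cells against 2.39 for Cox4i2, the lung isoform. For the testis isoforms, Cox6b1 had 178 against 13.6 RPKM for Cox6b2, Cox7b 108 against 0.573 for Cox7b2 and Cox8a 234 against 0.885 for Cox8c. Cox7a2 had 101 against 8.08 RPKM for the heart and muscle isoform Cox7a1, and Ndufa4 111 against 0.327 for Ndufa4l2, which responds to hypoxia.

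Cox6b2 had 15.7, 15.03 and 14.6 CPM in Cas9 control, 12.5, 11.4 and 12.5 in Cas9 Trim71-/-, 17.98, 16.5 and 17.5 in Tnrc6a control and 13.8, 11.6 and 13.7 CPM in Tnrc6a Trim71-/- libraries. The Trim71-/- libraries were lower than their controls with no overlap (log2 fold change -0.32, SE 0.09, adjusted p = 0.00358 in edgeR with Cas9 and log2 fold change -0.41, SE 0.08, adjusted p = 8.16e-05 in edgeR with Tnrc6a). Its rise with Tnrc6a in control cells (log2 fold change 0.20, SE 0.08, adjusted p = 0.0357 in edgeR) was lost without Cas9 control replicate 2 or 3 or Tnrc6a control replicate 1 or 3 (edgeR adjusted p = 0.0688 to 0.118). Cox4i2 was low, with 1.88, 2.696 and 2.12 CPM in Tnrc6a control and 0.685, 0.736 and 1.66 CPM in Tnrc6a Trim71-/- libraries (log2 fold change -1.13, SE 0.27, adjusted p = 0.000625 in edgeR). Cox7a1 was at 4.45, 3.59 and 4.15 CPM in Tnrc6a control and 3.07, 2.95 and 2.76 CPM in Tnrc6a Trim71-/- libraries (log2 fold change -0.47, SE 0.16, adjusted p = 0.014 in edgeR), a call lost without Tnrc6a control replicate 1 (edgeR adjusted p = 0.0568) or Tnrc6a Trim71-/- replicate 3 (0.0533). Its fall with Tnrc6a in Trim71-/- cells (log2 fold change -0.41, SE 0.16, adjusted p = 0.0257 in edgeR) was lost with DESeq2 (adjusted p = 0.0536) and without Cas9 Trim71-/- replicate 1 or 2 or Tnrc6a Trim71-/- replicate 3 (edgeR adjusted p = 0.0691, 0.116 and 0.0772).

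**Figure D5:**
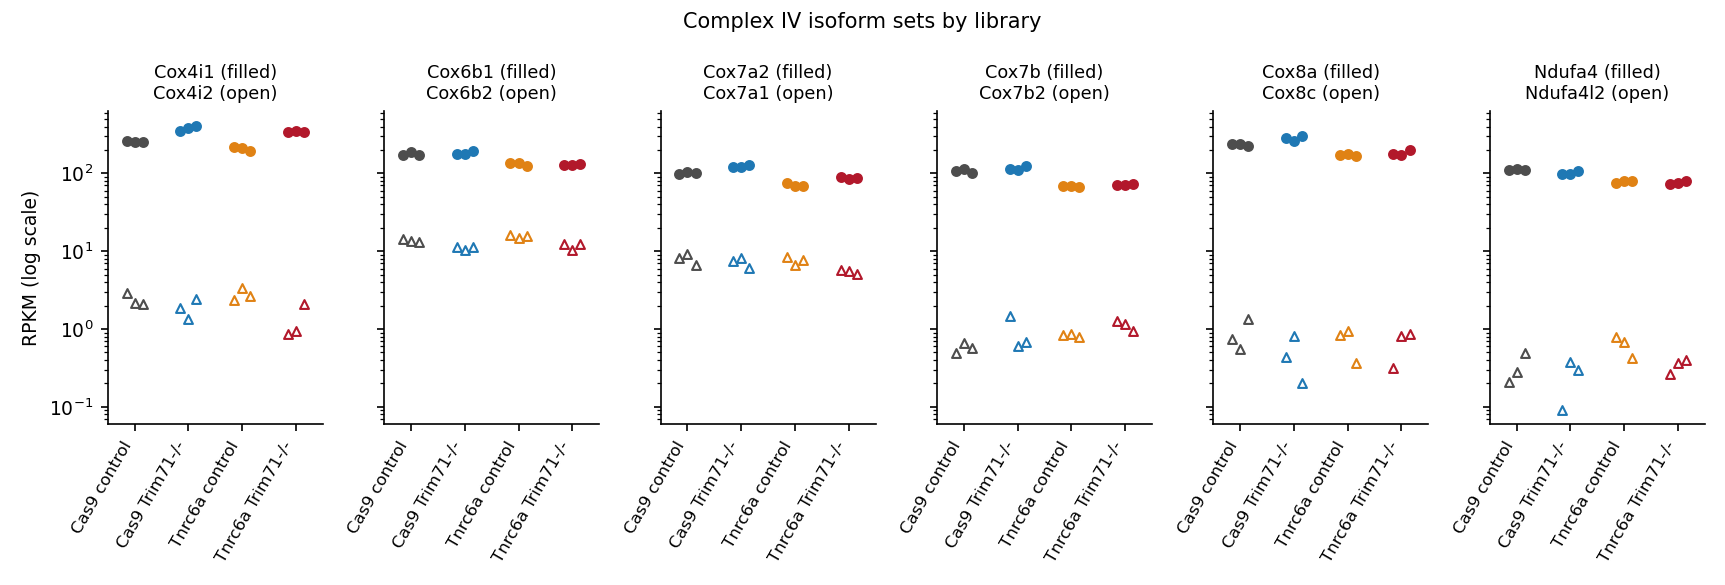
RPKM (vertical axis, log scale) of 6 pairs of isoforms by library in the 4 groups, with the ubiquitous form as filled circles and the tissue-restricted form as open triangles. The restricted form lies below its partner in every library, with Cox4i2 at 2.39 and Cox4i1 at 256 RPKM in Cas9 control cells.

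The interaction asked whether the effect of Tnrc6a differed between Trim71-/- and control cells. Of the 95 genes, 1 had a higher and 1 a lower Tnrc6a effect in Trim71-/- cells, where 4.68% of all genes tested were called higher and 2.25% lower, and the median difference was -0.07 beside 0.02 over all genes. Ndufc1, an accessory subunit of the membrane arm, had 31.9, 33.9 and 29.4 CPM in Cas9 control and 26.3, 24.9 and 23.02 CPM in Tnrc6a control libraries. Its Trim71-/- levels were 36.6, 31.8 and 39.7 CPM with Cas9 and 18.03, 21.9 and 21.5 CPM with Tnrc6a. It fell in both backgrounds, with the larger fall in Trim71-/- cells (-0.81 against -0.35, difference -0.46, SE 0.11, edgeR adjusted p = 0.00629). Its lower level in Tnrc6a Trim71-/- than in Tnrc6a control cells (-0.27) was lost without Tnrc6a Trim71-/- replicate 1 (edgeR adjusted p = 0.0821). Cox7a2l, a factor that joins complexes III and IV, had 136, 127 and 129 and 98.5, 95.1 and 88.3 CPM in Cas9 and Tnrc6a control libraries, and 120.4, 134 and 141 and 109, 113 and 107 CPM in the Trim71-/- groups. Its fall was smaller in Trim71-/- cells (-0.26 against -0.47, difference 0.21, SE 0.07, edgeR adjusted p = 0.0486). That call was lost under most alternatives. Among mitochondrially encoded subunits, COX2 had a smaller fall in Trim71-/- cells (difference 0.24, edgeR adjusted p = 0.0111).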

How the data were processed

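Total RNA of 12 libraries from mouse embryonic stem cells, made with a stranded TruSeq kit per the labels, was analysed from 1 deposited table. The authors deposited raw counts per gene with no normalization, and RPKM values that equal, within 0.0001, the counts divided by a deposited gene length and by 1 constant per library, 0.935 to 1.08 times that library's sum of counts. Per the submitters' processing notes, bcl2fastq 2.20 and STAR 2.7.3a were used with GRCm38 and mm10, and how genes were counted (tool, annotation, use of strand) is not given in the sources used here. No gene listed had fewer than 46 counts, and any below that were not analysed here. Counts were filtered with filterByExpr (20486 genes kept), scaled with TMM factors (trimmed mean of M values) and fitted with a robust quasi-likelihood model with 4 group means in edgeR 4.0.16 under R 4.3.3. Tests were two-sided, with Benjamini-Hochberg adjustment over all genes tested and a threshold of 0.05, and "rose", "fell" and "called" refer to it. CPM carry TMM factors, and fold changes are on the log2 scale. Their standard error (SE) was derived from the test, as the absolute log2 fold change over the square root of the F statistic. The depth of 20758151 to 31552915 counts limits precision for the 3 genes under 1 CPM.

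Alternatives were other scaling factors, other filters, limma-voom (limma 3.58.1), DESeq2 1.42.0, a fit on the groups compared, a replicate block, a fit without chromosome 8 genes and each library left out. Library totals were added after the data were seen. The model was tested on simulated data. Positions and coding lengths are from GENCODE M21 (GRCm38), promoters from RefSeq (GRCm38.p6), and all 95 identifiers were found. Shares of 50-base stretches were computed over the annotated transcripts, and 10 of the 95 genes shared at least 20% with other genes. Cox6a2 and Cox8b, and 8 genes without a symbol in the table, were not analysed here. Members, gene lists and tests were chosen with earlier results of these data known. The rule for names took, per comparison, up to 5 called genes of at least 1 CPM with the largest rise and the largest fall, genes on chromosome 8, complex II, isoform sets, the genes of highest RPKM per complex and up to 4 genes per list. One gene that it took is not reported here. Other genes named were chosen after their values were seen.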

Additional observations from a re-analysis of the deposited data

Results flagged for a closer look

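For 2 genes the effect of Tnrc6a differed between Trim71-/- and control cells by a test of the difference itself (the edgeR interaction). For Ndufc1 the difference of the log2 fold changes was -0.46 (-0.81 in Trim71-/- and -0.35 in control cells, edgeR adjusted p = 0.00629), and all 12 fits with 1 library left out kept the call. For Cox7a2l it was 0.21 (-0.26 and -0.47, edgeR adjusted p = 0.0486), and 11 of the 12 fits with 1 library left out lost the call (edgeR adjusted p = 0.0542 to 0.238).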

How the results depend on the processing

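The median of respiratory chain genes with Tnrc6a stayed below 0 under the alternatives run, and with library totals it was smaller and fewer genes fell (69 and 71). With 1 library left out, 81 to 85 genes fell in control cells and 88 to 89 in Trim71-/- cells, with medians of -0.42 to -0.36 and of -0.49 to -0.39, the last without Cas9 Trim71-/- replicate 3. With library totals the medians were -0.22 and -0.30, the genes called higher with Tnrc6a were 5 in control cells and 2 in Trim71-/- cells, and Sdha in control cells changed sign to 0.00691 (edgeR adjusted p = 0.882). The median of all genes moved up by a like amount under that scaling. The number called higher in control cells was 1 to 2 with 1 library left out. For Trim71-/- against control with Tnrc6a, library totals gave 20 higher and 14 lower and DESeq2 19 higher, and leaving out 1 library gave 20 to 33 higher and 3 to 13 lower. With Cas9, leaving out 1 library gave 33 to 47 higher and 2 to 8 lower, the extremes of the latter without Cas9 Trim71-/- replicates 2 and 3, and medians of 0.06 to 0.14. The cause of these shifts was not tested. The interaction had 1 call with limma-voom and with the replicate block, and 1 to 5 calls with 1 library left out. The call on Cox7a2l there was lost with factors by relative log expression (edgeR adjusted p = 0.0998), library totals (0.0734), limma-voom (adjusted p = 0.0593), DESeq2 (adjusted p = 0.139), the stricter filter (edgeR adjusted p = 0.0592), the replicate block (0.0646) and without chromosome 8 genes (0.0553).

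Correlations between same-numbered wells of their deviations from the group means were -0.232 to 0.145. No pairing by number was seen, though 3 libraries per group cannot exclude one. With the replicate block, 82 and 89 genes fell with Tnrc6a and 2 and 1 rose, and in Trim71-/- cells 38 rose and 4 fell with Cas9 and 31 rose and 9 fell with Tnrc6a. Without chromosome 8 genes, 79 and 86 of 92 fell with Tnrc6a, and 45 and 30 rose in Trim71-/- cells. Among values of single genes, 4298 kept direction and call, 80 lost a call, 53 gained one and 1 reversed. Low counts limit what can be said of Cox7b2, Cox8c and Ndufa4l2.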
